A study of Mus musculus with 3 samples.

Results

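The angiopoietin and Tie receptor axis was described across brain microvascular fragments as 7 genes, chosen by symbol from the 56941 genes of the count table: the receptors Tek and Tie1, the receptor phosphatase Ptprb, the ligands Angpt1, Angpt2 and Angpt4, and the matrix gene Svep1. All 7 symbols were found. The 3 libraries hold polyadenylated RNA of short pieces of small vessel that were freed from adult brain by mechanical and enzymatic dissociation, from wild-type C57BL/6J mice that received no treatment named in the labels. The libraries form 1 group (n = 3), so levels were compared between genes within a library and between mice, with no second condition. The labels give no sex, exact age or batch, and a fragment carries mural and glial cells along with its endothelium.

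Tek encodes Tie2, a receptor tyrosine kinase of endothelial cells, and Tie1 encodes its partner, which has no classical ligand of its own and modulates Tie2. Angpt1, made mainly by cells around the vessel, activates Tie2 and favours quiet, tight vessels, while Angpt2, stored in endothelial Weibel-Palade bodies, acts as a weak or blocking ligand depending on context. Ptprb encodes VE-PTP, which removes phosphate from Tie2 and holds its signal down. Svep1 encodes a large secreted matrix protein that is needed for lymphatic vessels in mice.

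Blood and pituitary transcripts set single libraries apart, seen in 2 lists of marker genes. Levels are given as CPM, read counts over the TMM-scaled size of the library. The erythroid and platelet list summed to 1104 CPM in replicate 1, against 139 and 67.7 CPM in replicates 2 and 3, and ran from Pf4 at 2.07 CPM to Hbb-bs at 234 CPM; 5 of its 8 genes were called as varying between mice by edgeR. The pituitary list summed to 1586 CPM in replicate 2, against 44.1 and 55.2 CPM in replicates 1 and 3, from Tshb at 1.07 CPM to Gh at 411 CPM, and 6 of 8 were called. Over all 18087 genes tested, 0.0829% were called. With a robust prior in edgeR, 0 genes were called, so none of either list.

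The receptors and the phosphatase had high counts in every mouse, and the ligands had low ones. Tek had 927, 977 and 898 CPM in replicates 1, 2 and 3. Tie1 had 827, 899.8 and 964 CPM in the same order. Ptprb had 1994, 2017 and 2038 CPM and took 51.6% ± 0.625 (SD, n = 3) of the summed CPM of the 7 genes. Each of these 3 genes thus stayed within a narrow band over the mice, with Tie1 lowest in replicate 1 and Tek lowest in replicate 3. Among the ligands, Angpt2 had 44.6, 36.5 and 55.5 CPM, Angpt1 15.9, 9.86 and 12.9 CPM and Angpt4 2.48, 2.25 and 3.36 CPM, all 3 lowest in replicate 2. Svep1 had 1.07, 0.894 and 0.668 CPM.

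**Figure D1:**
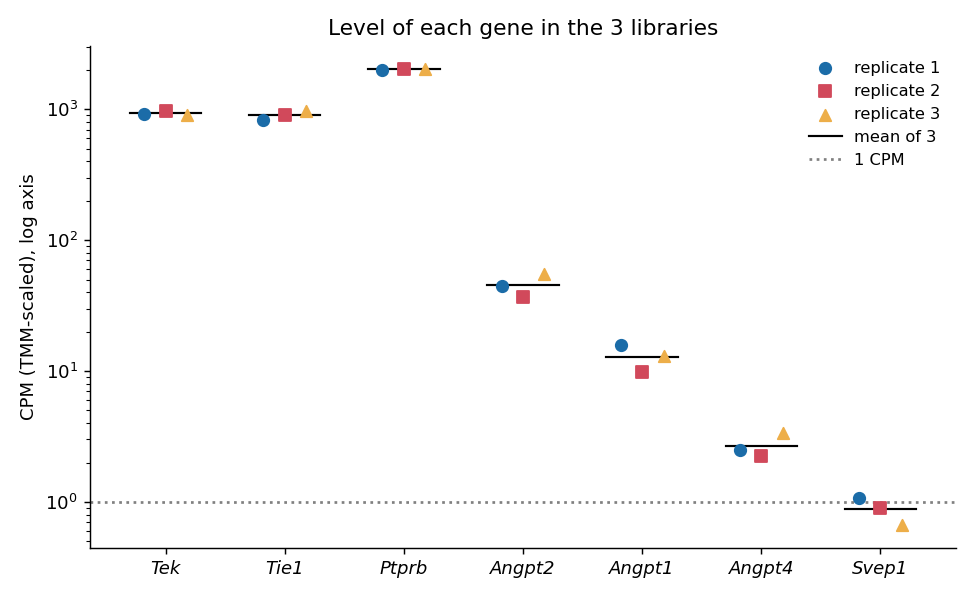
CPM of the 7 genes on a log axis, with 1 point per library, a bar at the mean of 3 and a dotted line at 1 CPM. Tek, Tie1 and Ptprb lie between 827 and 2038 CPM, the 3 ligands between 2.25 and 55.5 CPM, and Svep1 falls below the line in replicates 2 and 3.

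Of the 7 genes, 6 reached 1 CPM in each of the libraries and were taken as detected, a limit that 23.2% of all genes in the table passed. Svep1 passed it in replicate 1 alone. It had 139, 125 and 97 counts in replicates 1, 2 and 3, and exact Poisson intervals (95%, counting error only) ran from 0.898 to 1.26 CPM in replicate 1, from 0.744 to 1.07 CPM in replicate 2 and from 0.542 to 0.815 CPM in replicate 3. The Svep1 counts were well above the limit that a count of 0 allows, which was 0.0207 to 0.0231 CPM (3 counts of the effective library size). Angpt4, the mouse counterpart of human ANGPT4 and also a Tie2 ligand, had 323, 314 and 488 counts.

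The sequence before the start of each receptor gene is shown because the levels of Tek and Tie1, both known endothelial genes, did not differ beyond their spread per length. Promoter windows of 300 bases, from 250 before to 50 after the start, were given by RefSeq (GRCm38.p6, another build than the GRCm39 named for the counts) for 4 of the 7 genes. The Tek window is chr4:94739039-94739338 on the + strand and the Tie1 window is chr4:118489800-118490099 on the - strand. Capitals mark the core letters bound by ETS factors, GGAA or TTCC on the other strand.
Tek: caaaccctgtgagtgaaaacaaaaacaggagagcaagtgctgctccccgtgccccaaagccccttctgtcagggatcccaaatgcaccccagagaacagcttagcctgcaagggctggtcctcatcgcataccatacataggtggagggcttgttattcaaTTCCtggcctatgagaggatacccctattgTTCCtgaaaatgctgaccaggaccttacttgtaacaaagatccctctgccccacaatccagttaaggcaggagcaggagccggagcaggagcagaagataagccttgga
Tie1: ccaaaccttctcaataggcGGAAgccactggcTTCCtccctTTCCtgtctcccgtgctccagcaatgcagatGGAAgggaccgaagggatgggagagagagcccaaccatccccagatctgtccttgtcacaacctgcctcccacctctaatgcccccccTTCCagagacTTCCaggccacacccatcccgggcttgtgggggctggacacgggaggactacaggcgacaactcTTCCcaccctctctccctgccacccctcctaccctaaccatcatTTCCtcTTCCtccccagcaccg
The Tie1 window holds 9 such matches, a number that 1.59% of the 32851 promoter windows of that length reached, against 2 in the Tek window, a number that 84.6% reached. At least 1 match is found in 96% of all windows. A motif of GATA factors, searched on both strands by the letters AGATAA, occurs once in the Tek window, 37 bases after the start, and in 11.2% of all windows. The FOXO letters GTAAACA are in neither window and in 3.65% of all. These matches describe letters and are not shown to be sites.

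Levels of different genes were compared per length, as CPM per kb of merged exons in GENCODE M21 (GRCm38), which served for lengths alone. Tek had 197, 207 and 191 CPM per kb in replicates 1, 2 and 3, Tie1 168, 183 and 196, and Ptprb 149.5, 151 and 153. The receptor kinases were thus above the phosphatase on this scale, although Ptprb, with 13333 bases of exon, collected somewhat more counts than both together. Angpt2 had 12.1, 9.90 and 15.0 CPM per kb, Angpt1 3.05, 1.89 and 2.48, Angpt4 1.06, 0.962 and 1.44, and Svep1 0.0663, 0.0555 and 0.0415. No library of a ligand reached the lowest library of a receptor or of Ptprb, and within each library Angpt2 stood above Angpt1 and Angpt1 above Angpt4. Among the 12826 detected genes with a length, Tek ranked 191 by mean CPM per kb, Tie1 207, Ptprb 257, Angpt2 3841, Angpt1 9147 and Angpt4 10882. Angpt2 made up 77.2% ± 2.40 (SD, n = 3) of the summed CPM per kb of the 3 ligands.

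**Figure D2:**
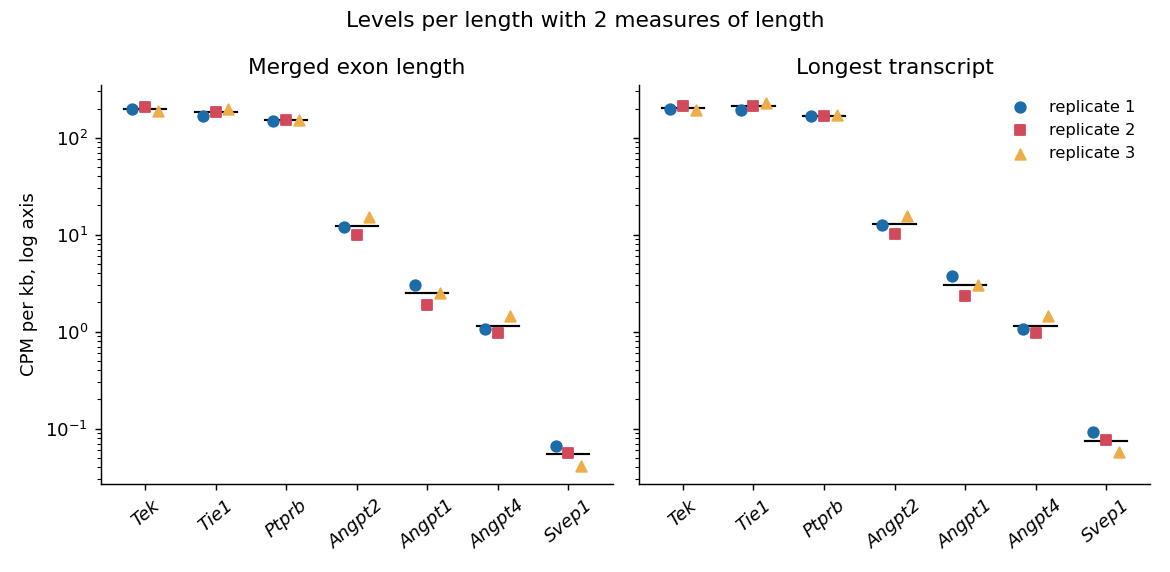
CPM per kb of the 7 genes on a log axis, scaled by merged exon length (left) and by the longest transcript (right), with 1 point per library and a bar at the mean. The step between Ptprb and Angpt2 is of like size in both panels (3.64 and 3.75 on the log2 scale), while Tek is above Tie1 on the left (198 and 182 CPM per kb) and below it on the right (201 and 212 CPM per kb).

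In the order of levels per length, Tek and Tie1 did not differ beyond their spread, and the 5 other neighbours did, by the rule that libraries do not overlap and the difference exceeds 2 SD. Tek exceeded Tie1 by 0.12 ± 0.14 on the log2 scale (SD over 3 within-library differences), with the libraries overlapping and replicate 3 at -0.04. With the longest transcript as length the difference turned to -0.08 ± 0.14. Tie1 exceeded Ptprb by 0.27 ± 0.09, and without length scaling that order was the other way (-1.17). The SD is over mice and leaves out any error in the length used for a gene, which all 3 libraries share. Ptprb exceeded Angpt2 by 3.64 ± 0.29, a 12.4-fold difference and the step that parts the receptors and phosphatase from the ligands. The same direction held in 3 of 3 mice for each of these neighbours except Tek and Tie1.

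Among the ligands, Angpt2 exceeded Angpt1 by 2.32 ± 0.31 on the log2 CPM per kb scale, or 5.002-fold, with 1.98, 2.39 and 2.60 in replicates 1, 2 and 3. Angpt1 exceeded Angpt4 by 1.10 ± 0.38, with 1.52, 0.98 and 0.79 in the 3 replicates, and Angpt4 exceeded Svep1 by 4.41 ± 0.61. Angpt4 lay below Angpt2 by a nearly fixed distance, -3.42 ± 0.08, and both were highest in replicate 3 and lowest in replicate 2. Relative to the receptor they bind, Angpt2 lay at -4.03 ± 0.36 and Angpt1 at -6.35 ± 0.39 from Tek. The exact two-sided sign-flip test over 3 libraries gave p = 0.25 for each of these differences, the smallest it can give, and p = 0.5 for Tek and Tie1.

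Some counts carry limits of their own. An RNA on the other strand, Gm17473, covers 14.2% of the exon length of Angpt1, and it had 136, 56 and 106 counts against 2069, 1378 and 1876 for Angpt1, with the same order over the libraries. The library kit marks strand, but the strand setting of the counting is not given in the sources used here, so reads of the 2 genes cannot be told apart with certainty. Another such gene, Gm26889, covers 13.9% of the exon length of Svep1. Its symbol is not in the count table, so no counts of it can be set beside those of Svep1. Shared stretches of 50 bases with transcripts of any other gene made up at most 0.121% of Tek, Tie1, Angpt2, Angpt4 and Ptprb. They made up 13.3% of Angpt1 (with Gm17473) and 14.1% of Svep1 (with Gm26889 and Gm15079). Both strands were searched, so the shares with Gm17473 and Gm26889 include the overlaps given above and are not a separate limit.

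No gene of the axis was called as varying between mice beyond genes of its level. In the dispersion test of edgeR (quasi-likelihood), 0 of 7 passed an adjusted p of 0.05, beside 0.0829% of the 18087 genes tested; 0 of 7 had an unadjusted p under 0.05 either (5.18% of all genes did), and DESeq2 marked 0 of 7 as dispersion outliers (0.619% of all genes). Angpt2 came nearest in edgeR, with an adjusted p of 0.967 (unadjusted 0.0523), followed by Angpt1 with an adjusted p of 0.993 (unadjusted 0.0807). Leaving out replicate 1 gave Angpt2 an unadjusted edgeR p of 0.00888, and leaving out replicate 3 gave Angpt1 0.0253, with adjusted p of 0.57 and 0.835. On simulated counts for this comparison the test found 28.5% of genes shifted 2-fold in 1 library, so a difference of the size seen in the ligands could pass unnoticed: the highest library was 1.52 times the lowest for Angpt2, 1.61 times for Angpt1, 1.497 times for Angpt4 and 1.60 times for Svep1.

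**Figure D3:**
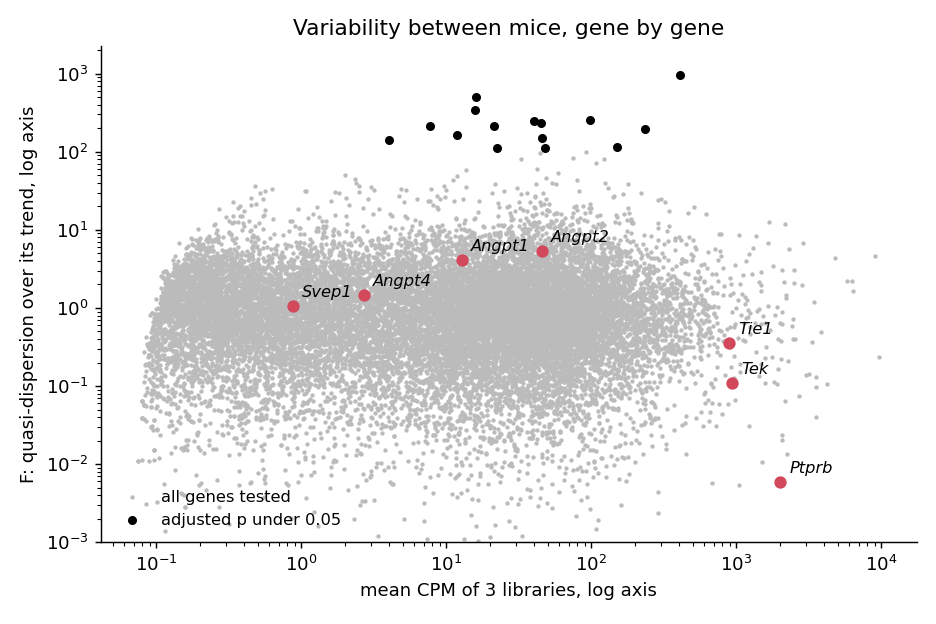
The ratio F of each gene's quasi-dispersion to its trend against mean CPM, both on log axes, for 18087 genes (those with F under the axis are not drawn), with the genes called at an adjusted p under 0.05 in black and the axis genes in red. Angpt2 and Angpt1 lie above 1 (F of 5.28 and 4.11), Angpt4 and Svep1 slightly above it (1.45 and 1.07). Tie1, Tek and Ptprb lie below 1, with Ptprb near the lower edge at 0.00591.

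Ptprb had the smallest spread of the axis. With TMM scaling, its CV over the 3 mice was 1.10%, against 4.28% for Tek and 7.64% for Tie1. Of the 2181 detected genes with a mean of 100 CPM or more, 28 had a lower CV than Ptprb on that scaling. The median CV of the 2181 was 8.995%. The spread depends on the scaling. The SD of Ptprb was 22.2 CPM with TMM scaling, 29.7 CPM with DESeq2 size factors and 48.2 CPM with library totals. With library totals, Tek had 935 ± 66.6 CPM and Tie1 896 ± 50.5 CPM. On that scale Tek thus spread more widely than Tie1. Among the 12 endothelial markers, the CV ran from 3.36% for Cd34, a sialomucin, to 25.8% for Robo4, a guidance receptor of endothelium. The ligands spread more widely, at 20.9% for Angpt2, 21.8% for Angpt4 and 23.4% for Angpt1.

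Marker lists of other cell types also differed between the libraries. Replicate 3 was low in the choroid plexus and ependyma list, at 0.30, 0.11 and -0.41 (mean log2 deviation of the detected markers in replicates 1, 2 and 3; summed levels of 6911, 8217 and 5075 CPM), and in the astrocyte list, at 0.09, 0.14 and -0.24 (1621, 1754 and 982 CPM). Slc1a2, with 1210.2, 1303 and 627 CPM, carries most of the astrocyte sum. Its members did not all fall together. Aqp4 had 29.8, 26.7 and 15.5 CPM, but Gja1 had 75.2, 80.9 and 77.3 CPM. Fgfr3, with 40.1, 35.3 and 52.0 CPM, was highest in replicate 3. The part of these lists in the values of the axis genes was not tested. All 12 endothelial markers were detected, with summed levels of 17796, 20539.7 and 22681 CPM. The members of the list lay on average -0.18, 0.01 and 0.17 from their own means (log2) in replicates 1, 2 and 3. They ran from Egfl7 at 273 ± 50.4 CPM to Flt1, a VEGF receptor, at 3852 ± 412 CPM. Tie1, with deviations of -0.11, 0.01 and 0.11, followed the order of this list mean. Tek, with -0.01, 0.07 and -0.06, did not, and of the list means it shared its order with the astrocyte list alone. Yet the endothelial members did not all keep the order of their list. Slco1a4, with 1925, 2262 and 1812 CPM, had the order of Tek, and Cldn5, Egfl7 and Emcn departed from the list order in other ways. Ptprb, with -0.02, 0.00 and 0.02, had the order of the endothelial list with TMM scaling. Its differences were smaller than those between the TMM factors (1.01, 1.02 and 0.965), and with library totals it was lowest in replicate 3. The order of Ptprb thus depends on the scaling. In bulk RNA a smaller number of cells of a type and less RNA per cell cannot be told apart. Set against the median endothelial marker of its own library, the SD over mice on the log2 scale was 0.07 for Tie1, 0.21 for Tek and 0.17 for Ptprb, where the unscaled SDs were 0.11, 0.06 and 0.02, so of these 3 genes scaling narrowed the spread of Tie1 alone.

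Angpt1 was highest in replicate 1 and lowest in replicate 2, an order it shared with the fibroblast, microglia and macrophage, and neuron lists out of 12 (by the mean log2 deviation of the detected markers). The fibroblast list had 8 of 9 markers detected, from Slc47a1 at 0.0730 CPM to the matrix inhibitor of calcification Mgp at 626 CPM, with summed levels of 794, 771 and 902 CPM, a sum that Mgp carries and that is highest in replicate 3. Its detected members were split. Dcn, Lum, Col1a2 and Col3a1 had the order of Angpt1, while Col1a1 and Mgp were highest in replicate 3 and Pdgfra and Igf2 were lowest there. The microglia and macrophage list had 8 of 8, from Cd163 at 5.16 CPM to Csf1r at 1860.0 CPM, summing to 5531, 4099 and 4885 CPM, and the neuron list 7 of 8, from Nefm at 0.840 CPM to Stmn2 at 79.4 CPM, summing to 118, 94.7 and 112 CPM. In the microglia and macrophage list, Tmem119 (565, 425 and 639 CPM) and, narrowly, Aif1 were highest in replicate 3, and the other members kept the order. The neuron list deviated by 0.31, -0.16 and -0.15, so its order rests on a near tie of replicates 2 and 3. Its members disagreed there: Snap25 had 15.3, 6.57 and 4.08 CPM and Stmn2 80.5, 70.0 and 87.6 CPM. Angpt2 and Angpt4, highest in replicate 3 and lowest in replicate 2, shared their order with the smooth muscle list alone, which had 8 of 8 markers detected, from Tagln at 10.9 CPM to Acta2 at 2461 CPM, summing to 6105, 5377 and 6149 CPM. Of its members, Myh11 (1521, 1410 and 1383 CPM), Des (173, 180 and 184 CPM) and Mylk (618, 516 and 565 CPM) did not have this order, and the others did. None of the markers in these 4 lists had a count of 0, and their part in the ligand values was not tested. The pericyte list, at -0.14, 0.13 and 0.01 in replicates 1, 2 and 3, was highest in replicate 2, where the 3 ligands were lowest. It was lowest in replicate 1, where Angpt1 was highest. The part of the pericyte list in the ligand values was not tested either. Svep1 shared its order with the lymphatic endothelial, oligodendrocyte lineage, choroid plexus and ependyma, and erythroid and platelet lists; by summed level the lymphatic list ran the other way, at 199.8, 218 and 295 CPM, with Flt4 at 184, 205 and 285 CPM. Of the other lymphatic markers, Prox1, the master regulator of lymphatic identity, had 2.53 CPM and Ccl21a 0.438 CPM. Only 6 orders of 3 libraries exist, so a shared order is weak information.

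**Figure D4:**
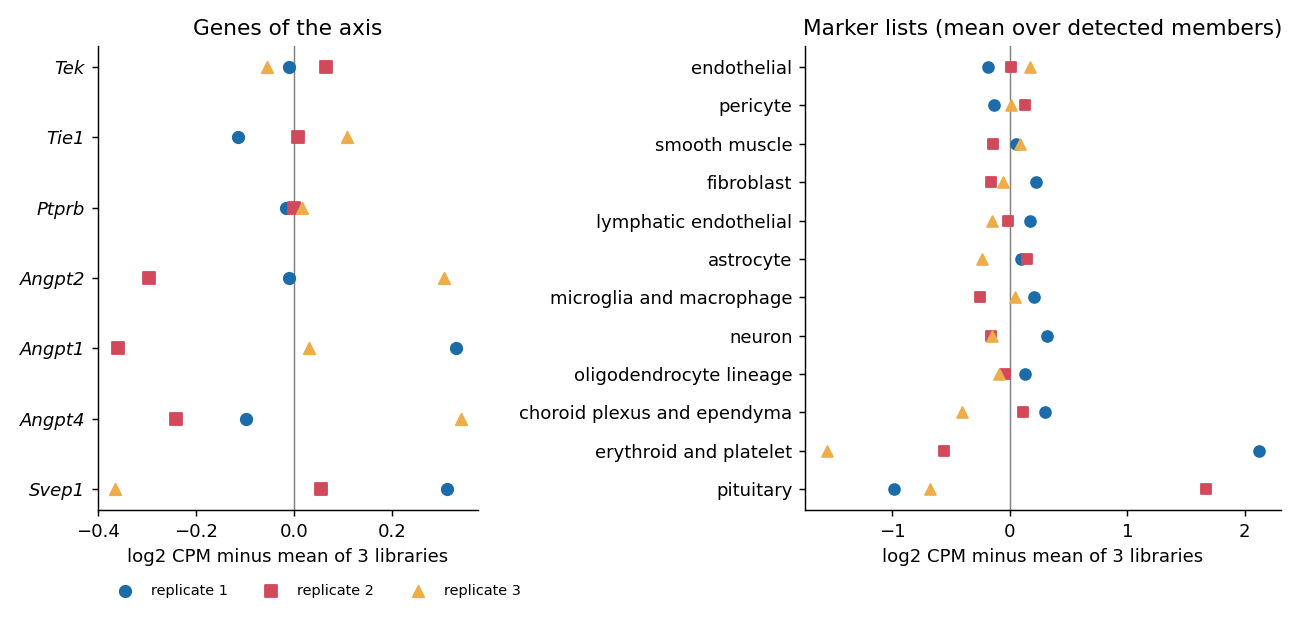
Deviation of log2 CPM from the mean of the 3 libraries, for each gene of the axis (left) and for the mean of the detected members of each marker list (right, on a wider scale), with 1 point per library. Angpt1, Angpt2 and Angpt4 are lowest in replicate 2, Ptprb hardly moves, and the erythroid and pituitary lists stand far out in replicates 1 and 2.

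The erythroid and platelet list deviated by 2.12 in replicate 1 and the pituitary list by 1.67 in replicate 2. Levels with either replicate left out used TMM factors recomputed on the remaining libraries. They therefore hold rescaling as well as the loss of a mouse. Without replicate 1 the mean levels were 931 CPM for Tek, 926 CPM for Tie1, 2014 CPM for Ptprb, 45.7 CPM for Angpt2, 11.3 CPM for Angpt1 and 2.78 CPM for Angpt4. Without replicate 2 they were 902 CPM for Tek, 886 CPM for Tie1, 1994 CPM for Ptprb, 49.5 CPM for Angpt2, 14.2 CPM for Angpt1 and 2.89 CPM for Angpt4. Of the remaining lists, pericyte markers ran from Cox4i2 at 21.5 CPM to Rgs5 at 2044 CPM, astrocyte markers from Gjb6 at 10.4 CPM to Slc1a2 at 1047 CPM, oligodendrocyte lineage markers from Sox10 at 0.523 CPM to Mbp at 67.1 CPM, and choroid plexus and ependyma markers from Foxj1 at 10.9 CPM to Ttr at 6282 CPM.

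Genes around the receptors were mostly detected: 48 of 55 listed genes, or 87.3%, reached 1 CPM in every library, beside 23.2% of all genes in the table. Of the 55, 53 had counts enough for the variability test, which left out Ptprq and Ptprh. None of the 53 passed it at an adjusted p of 0.05 (edgeR). An unadjusted p under 0.05 was found for 4 of them, or 7.55%, near the 5.18% of all genes tested: Angptl4, Grb7, Angptl1 and Klf2. DESeq2 marked 1 of the 53, Angptl4, as a dispersion outlier, beside 0.619% of all genes. Among adaptors and kinases downstream of Tie2, 22 of 23 were detected, with a median of 6.41 ± 0.01 on the log2(CPM + 1) scale against 4.78 over all detected genes. Rac1, a small GTPase, had 567 ± 57.1 CPM, the kinase Mapk3 399.7 ± 19.7 CPM and the endothelial nitric oxide synthase Nos3 362 ± 75.1 CPM. Exons on the other strand overlap 51.4% of Rac1 and 32.3% of Nos3, which makes their counts uncertain. Akt1, the kinase that carries the Tie2 survival signal, had 289 ± 30.6 CPM. At the low end stood Pak1 at 28.2 ± 3.66 CPM, Tnip2 at 19.7 ± 2.05 CPM and Dok2, an adaptor that binds activated Tie2, at 0.575 ± 0.143 CPM.

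**Figure D5:**
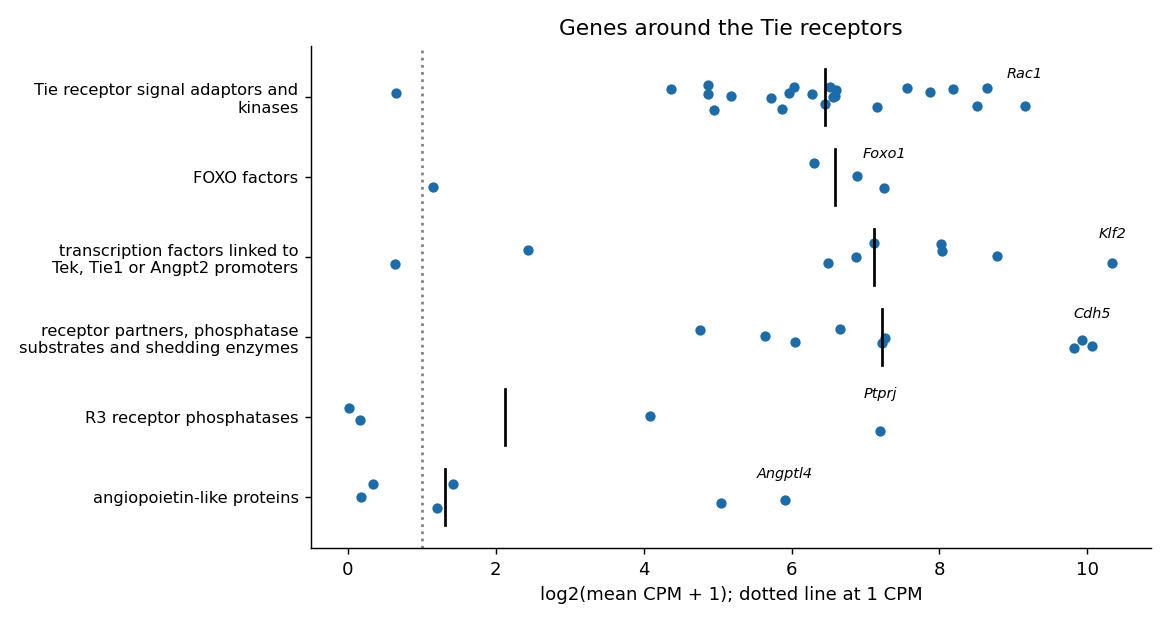
Level of each listed gene around the Tie receptors as log2(mean CPM + 1), with 1 point per gene, a bar at the list median, a dotted line at 1 CPM and the highest gene of each list named. The angiopoietin-like proteins and the R3 phosphatases have the lowest medians (1.31 and 2.12).

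FOXO factors are held out of the nucleus by Akt, and Foxo1 drives Angpt2 in endothelial cells. Foxo1 had 149, 149 and 157 CPM in replicates 1, 2 and 3, Foxo3 117 ± 14.6 CPM, Foxo4 77.7 ± 6.41 CPM and Foxo6 1.23 ± 0.278 CPM, under the detection limit in replicate 1. Of 9 transcription factors linked to the promoters of Tek, Tie1 or Angpt2, 8 were detected, with a median of 7.11 ± 0.15. Klf2, a flow-induced factor, had 844, 1556 and 1480 CPM (edgeR adjusted p = 0.948). The ETS factors Ets1 and Erg had 440 ± 71.6 and 261 ± 17.9 CPM. Elf1 had 88.8 ± 3.09 CPM, Foxc2, a factor of lymphatic valves, 4.41 ± 0.399 CPM and Gata3 0.561 ± 0.0105 CPM.

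All 9 partners, substrates and shedding enzymes were detected, with a median of 7.14 ± 0.13. The VE-PTP substrates Cdh5 (VE-cadherin) and Kdr (a VEGF receptor) had 1068 ± 60.9 and 899 ± 137 CPM, and Itgb1, an integrin subunit, 969 ± 95.2 CPM. Itga9, which pairs with Itgb1 to bind the Svep1 protein, had 49.1 ± 8.36 CPM, Mmp14 26.0 ± 2.33 CPM and Itgav 65.1 ± 12.4 CPM. Of the phosphatases of the same R3 class as Ptprb, Ptprj had 146 ± 20.8 CPM and Ptpro 15.99 ± 2.16 CPM. Ptprq had 0.0845, 0.0644 and 0.207 CPM, and Ptprh 0 counts in replicate 1 and 0.0286 and 0.0138 CPM in replicates 2 and 3. Ptprb was therefore the most abundant of the 5 also per length, at 151 ± 1.67 CPM per kb against a mean of 17.5 CPM per kb for Ptprj.

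The angiopoietin-like proteins share the fold of the angiopoietins and do not bind Tie2. Angptl4, an inhibitor of lipoprotein lipase, had 51.4, 25.9 and 99.7 CPM in replicates 1, 2 and 3 (edgeR adjusted p = 0.184), the same order as Angpt2. Its unadjusted p, 0.000244, was the lowest of the 53. Angptl2 had 32.1 ± 3.83 CPM, Angptl7 1.68 ± 0.224 CPM, Angptl6 1.31 ± 0.0846 CPM and Angptl1 0.266 ± 0.173 CPM.

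Patterns over the 3 libraries most like those of the axis genes were read from the listed genes, by the root mean square difference of centred log2 CPM. Nearest to Angpt1 were Col3a1 (0.075), Itga9 (0.083) and Dcn (0.093). Angpt2 was nearest to Fgfr3 (0.042), Col1a1 (0.045) and Lmod1 (0.058), and Angpt4 to Fgfr3 (0.026), Ly6a (0.076) and Grb7 (0.088). Tie1 was nearest to Foxo4 (0.013), Elf2 (0.013) and Angptl6 (0.016), Tek to Akt2, Gja1 and Cspg4 (0.036 to 0.037) and Ptprb to Foxo1, Des and Cd34 (0.023 to 0.027). With 3 libraries such likeness is common, least so for Angpt4. Among the 13210 other detected genes, 104 lay as near to Angpt1 as Col3a1, 51 as near to Angpt2 as Fgfr3, and 602 as near to Tek as Akt2. For the others, 121 lay as near to Tie1 as Foxo4, 429 as near to Ptprb as Foxo1, and 15 as near to Angpt4 as Fgfr3.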

How the data were processed

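The authors deposited whole-number counts per gene symbol, not normalized, for 3 libraries. The submitters' processing notes name GRCm39, featureCounts and Subread 1.4.6-p5; aligner, annotation release, strand setting and handling of multiply mapped reads are not given in the sources at hand. Per the labels' protocols, 400 ng of total RNA went into each stranded polyA library, read as 150 bp pairs. Depth was 128428355 to 150449539 counts. The series' design text speaks of 3 mice, so each replicate was taken as 1 mouse; columns were matched to samples by library name.

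CPM used TMM factors from edgeR 4.0.16 (R 4.3.3); other steps used Python 3.11.15, pandas 2.3.3 and numpy 2.4.6. Values are given with the SD over 3 libraries. Variability was tested with an intercept-only quasi-likelihood fit on the 18087 genes kept by filterByExpr, each gene's quasi-dispersion against the trended prior (upper-tail F test, Benjamini-Hochberg over all genes). The test was tried on simulated data for this comparison (17752 to 17770 genes, 200 of them with means over 100 counts shifted in 1 library). It recovered 28.5%, 91% and 97.5% of 2-fold, 4-fold and 8-fold shifts, with at most 1 false call. Each simulated gene was drawn at the trend dispersion of its level, without the scatter between genes of real data. These shares are therefore not the power of the test on the real counts. There Angptl4, at 51.4, 25.9 and 99.7 CPM, was not called (edgeR adjusted p = 0.184). Lengths from GENCODE M21 matched 49083 genes by symbol.

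The members and all lists were chosen with earlier results of these data known. The text names every member, the 3 highest and 3 lowest genes of each pathway list (1 gene is not reported here), the extremes of each marker list and the 3 listed genes nearest in pattern; Akt1, Prox1, Cd34, Robo4 and genes with an unadjusted p under 0.05 were added after their values were seen. Alternatives were DESeq2 1.42.0 size factors and dispersion outliers, library totals, other limits and filters, a robust prior, another length, and each library left out with TMM factors recomputed on the rest.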

Additional observations from a re-analysis of the deposited data

How the results depend on the processing

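No member was called variable under any alternative run (0 of 7 in each; unadjusted p under 0.05 for Angpt2 without replicate 1 and with no filter, and for Angpt1 without replicate 3). Detected were 6 of 7 under each library scaling and with each library left out, 7 at a limit of 0.5 CPM and 5 at 5 CPM. With the longest transcript, Tek minus Tie1 was -0.076 and Ptprb minus Tek -0.24 (log2), against 0.12 and -0.39 with merged exons; the lengths alone differ between these. Without length scaling, Tie1 minus Ptprb was -1.17, Ptprb minus Tek 1.11, Ptprb minus Angpt2 5.49, Angpt2 minus Angpt1 1.83, Angpt1 minus Angpt4 2.25, Angpt4 minus Svep1 1.63 and Angpt4 minus Angpt2 -4.08. With log2(CPM per kb + 1), which pulls low values together, Angpt2 minus Angpt1 was 1.94, Angpt1 minus Angpt4 0.68, Angpt4 minus Svep1 1.02, Angpt1 minus Tek -5.85 and Angpt4 minus Angpt2 -2.62.

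Set against the median mural marker instead of the endothelial one, values moved because the 2 lists differ in level: 2.22 for Tek, 2.16 for Tie1, 3.34 for Ptprb, -3.98 for Angpt1, -2.15 for Angpt2, -6.23 for Angpt4 and -7.86 for Svep1, against -0.71, -0.77, 0.40, -6.91, -5.09, -9.16 and -10.79. At a limit of 5 CPM, 2 angiopoietin-like genes were detected instead of 4. The number of genes called variable was 15, against 173 with no filter, 0 with a robust prior in edgeR (785 at an unadjusted p under 0.05) and 112 by DESeq2; the cause was not tested.

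Leaving out each library in turn moved the Ptprb mean between 1994 and 2042 CPM, more than its small SD of 22.2 CPM, and the number of genes called between 7 and 80: 7 without replicate 1, 80 without replicate 2 and 33 without replicate 3. TMM factors were recomputed on the 2 libraries left, so the Ptprb shift holds rescaling as well as the loss of a mouse. Its mean of 2042 CPM without replicate 3 lay above its highest library in the main scaling, at 2038 CPM. With 2 libraries left the test rests on 1 degree of freedom per gene. No paired analysis was possible because the 3 libraries form a single group.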

Other observations

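The windows of Angpt4 and Svep1, the other 2 genes of the axis with a RefSeq promoter window, were read for the same motifs and for a TATA box. TATAAA, searched on both strands, occurs once in the Angpt4 window, 30 bases before the start (-30), and once in the Svep1 window (-42), and in neither the Tek nor the Tie1 window. It occurs in 13.6% of the 32851 windows of RefSeq (GRCm38.p6). This is a description of 4 sequences, with no test.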
